A study of Mus musculus with 16 samples.

Results

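Mouse dendritic cells were given a saturated fatty acid (PA), an agonist of an RNA sensor (IMQ), both or neither, and what is described here is the part of their joint effect that is not the sum of both single effects. That part is the interaction, which is the change with PA in the presence of IMQ minus the change with PA in its absence, (IMQ+PA minus IMQ) minus (PA minus mock). It was taken for every gene with 1 symbol on all 16 arrays of the study, so that the members are all 22180 genes tested, of 22180, and all 16 samples, of 16. A gene with several probe sets was read by the one that was brightest on average.

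Palmitic acid is the main saturated fatty acid of blood and diet, and cells store it in lipid droplets, burn it in mitochondria or build it into membranes. Saturated lipid in the membrane of the endoplasmic reticulum (ER) is known to set off the unfolded protein response, whose sensors IRE1 and ATF6 raise chaperones of the ER through the factors XBP1 and ATF6, and whose sensor PERK raises amino acid enzymes through the factor ATF4. Imiquimod is known to act on TLR7, an endosomal receptor that signals through MYD88 to NF-kB, MAP kinases and interferon regulatory factors, and that makes dendritic cells mature and secrete cytokines.

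Bone marrow came from C57/B6 mice, all male, and was cultured with 20 ng/ml GM-CSF for 10 days before a treatment of 24 h. The 4 groups of 4 numbered biological replicates were cells treated with mock (mock), with 0.5 mM PA carried on albumin, 6 molecules to 1 (PA), with IMQ (IMQ), and with IMQ in the presence of PA (IMQ+PA). That PA stands for palmitic acid and IMQ for imiquimod is taken from what is known of the study. For IMQ, the labels hold both 3 uM and 3 ug/ml as its dose, and they do not say whether mock cells received albumin. The labels do not tie the replicates to animals or cultures, so p-values measure the spread between these arrays.

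All levels below are deposited log2 RMA values of 1-colour Affymetrix arrays, all changes are differences of them, and values after ± are standard errors of the limma fit with 4 arrays per group. Arrays have no read depth, and their number limits the precision. Within a group, arrays correlated at 0.994 to 0.996 over all genes. The log2 value 4.93, below which lay 95% of 1447 genes of sensory receptors, was used as the mark of a dim gene, and 8622 of the 22180 genes were dim in the mean of every group. Of the markers of conventional dendritic cells, 7 of 9 measured were above that mark and Xcr1 and Kmo were dim, and all 12 macrophage markers were above it, as is known of cultures with GM-CSF. A bulk sample cannot tell fewer cells of a type from less RNA per cell.

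The mock and PA groups were not uniform. The IMQ-induced cytokine Il6 read 7.57, 7.90, 7.71 and 4.32 in mock, 4.12, 4.0, 7.43 and 8.22 in PA, 11.90, 11.86, 11.86 and 12.02 in IMQ, and 12.26, 12.25, 12.25 and 12.27 in IMQ+PA. Mock replicates 1 to 3 and PA replicates 3 and 4 therefore read high for a gene that IMQ raises, and mock replicate 4 and PA replicates 1 and 2 did not. For many of the results that this moves, the value without those 5 arrays, or without the other 3, is given beside them. A result without such a value can still depend on these arrays. Without those 5 arrays, mock is replicate 4 alone and PA is replicates 1 and 2. Every value of that fit therefore rests on that mock array, and its calls carry no spread of mock.

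The interaction passed the threshold (limma, p adjusted by Benjamini-Hochberg over all genes, under 0.05) in 3015 genes, here named called genes, which is 13.6% of those tested. It was above 0 for 1460 genes (6.58%) and below 0 for 1555 (7.01%), with a median over all genes of -0.01. Beside it, PA without IMQ changed 331 genes (1.49%), IMQ alone changed 7727 (34.8%), and PA on top of IMQ changed 4676 (21.1%). Of the called interactions, 230 had a size of at least 1 on the log2 scale, with 161 above 0 and 69 below 0, and 24 and 6 of these were at least 2. The larger departures from the sum were thus mostly upward, while the numbers of all calls were close in both directions. Without the 5 arrays with high Il6, fewer genes were called. All 3015 genes called on the full set of arrays kept their direction in that fit. That was close to given, since they were selected on arrays that this fit shares. Without the other 3 arrays, 977 and 1007 genes were called.

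Each called gene was put in a class by the side of the sum on which its joint change (IMQ+PA minus mock) lay. A gene is joint only where neither single change was called and the joint change was. It is synergistic where the joint change went beyond the sum in the same direction, turned where it went against the sum, antagonistic where it fell short of it, and cancelled where the joint change was not called, whether or not a single change was. These classes share arrays between their parts and describe, without a test of their own. There were 532 joint only genes (303 up, 229 down), 827 synergistic (424 up, 403 down), 217 turned (133 up, 84 down), 693 antagonistic (424 with a smaller rise, 269 with a smaller fall) and 746 cancelled (415 where the sum was a rise, 331 where it was a fall). A gene is near-additive where at least 1 single change was called, the interaction was not, and its 95% interval lay within 0.5 of 0. This held for 4388 genes, in 88 of which both single changes were called. The other 14777 genes were in no class, since their intervals were wider or neither single change was called.

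**Figure D1:**
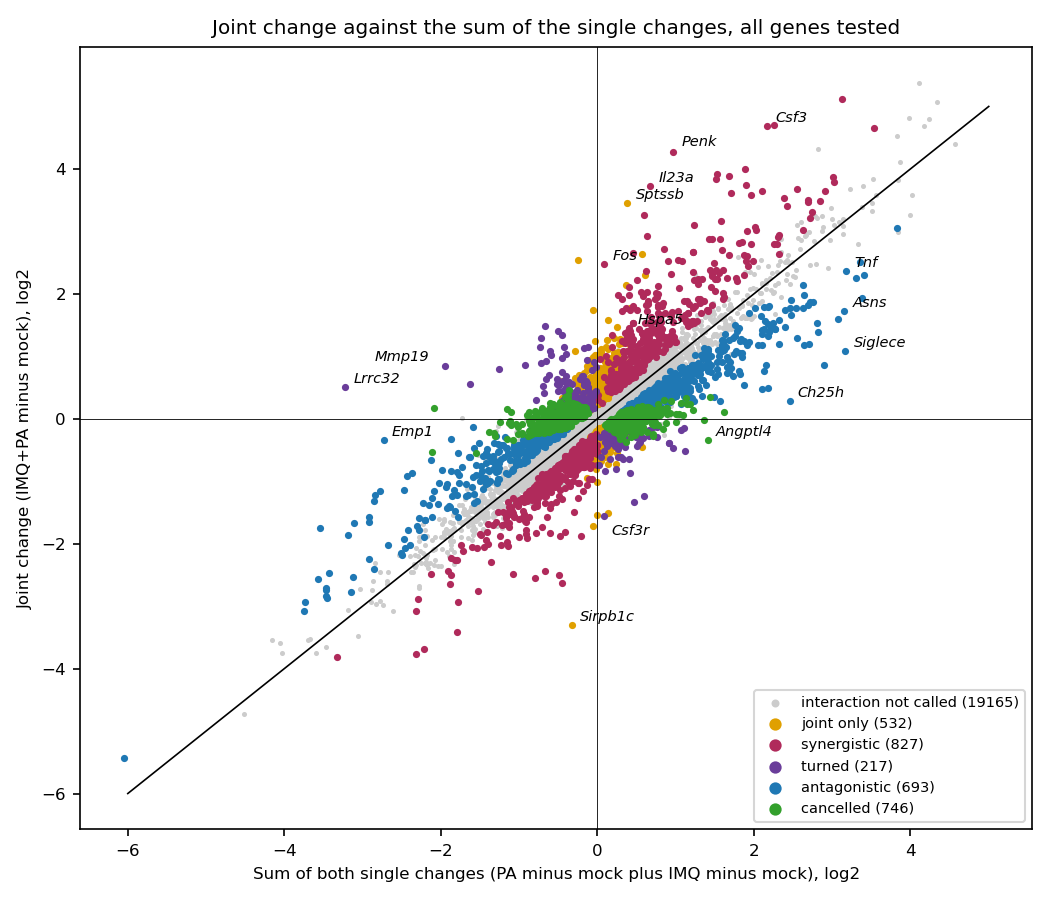
Each point is 1 of the 22180 genes, with the sum of both single changes on the x axis and the joint change on the y axis, both in log2 units, from group means of 4 arrays. The diagonal is the sum, genes without a called interaction are grey, and the other colours are the classes of called genes: Lrrc32 and Mmp19 lie far above it on the side of the fall, Sirpb1c far below it, and Ch25h and Siglece below it on the side of the rise.

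Lrrc32, Penk and Mmp19 were among the 6 genes with the highest interaction. Lrrc32 encodes GARP, a membrane protein that holds latent TGF-beta at the cell surface. Its level was 8.80, 8.71, 8.91 and 8.83 in mock, 8.78, 8.80, 8.74 and 8.85 in PA, 5.96, 5.72, 5.41 and 5.36 in IMQ, and 9.34, 9.27, 9.44 and 9.23 in IMQ+PA. IMQ alone lowered it by 3.20, PA alone left it at -0.02, and with both it stood above mock on every array. The interaction was 3.73 ± 0.15 (limma, adjusted p = 3.36e-10), the highest of all 22180 genes, and a level 13.3 times that of the sum. Mmp19, a matrix metalloproteinase, had levels of 10.49, 10.44, 10.47 and 10.49 in mock, 10.63, 10.66, 10.69 and 10.76 in PA, 8.41, 8.28, 8.26 and 8.31 in IMQ, and 11.38, 11.26, 11.35 and 11.30 in IMQ+PA. It fell by 2.15 with IMQ and rose by 0.21 with PA, and every IMQ+PA array exceeded every array of the other groups. Its interaction was 2.79 ± 0.07 (limma, adjusted p = 1.38e-12).

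Penk encodes proenkephalin, the precursor of the enkephalin opioid peptides. Its level was 5.79, 5.74, 5.79 and 5.93 in mock, 5.90, 5.67, 6.14 and 6.20 in PA, 6.69, 6.50, 6.70 and 6.56 in IMQ, and 10.08, 10.06, 10.17 and 10.00 in IMQ+PA. The 4 IMQ+PA arrays lay more than 3 log2 units above the highest of the other 12, whereas IMQ alone raised the gene by 0.80. The interaction was 3.30 ± 0.14 (limma, adjusted p = 4.19e-10). Lrrc32 and Mmp19 were turned and Penk was synergistic, so the same direction of departure came from different single changes.

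**Figure D2:**
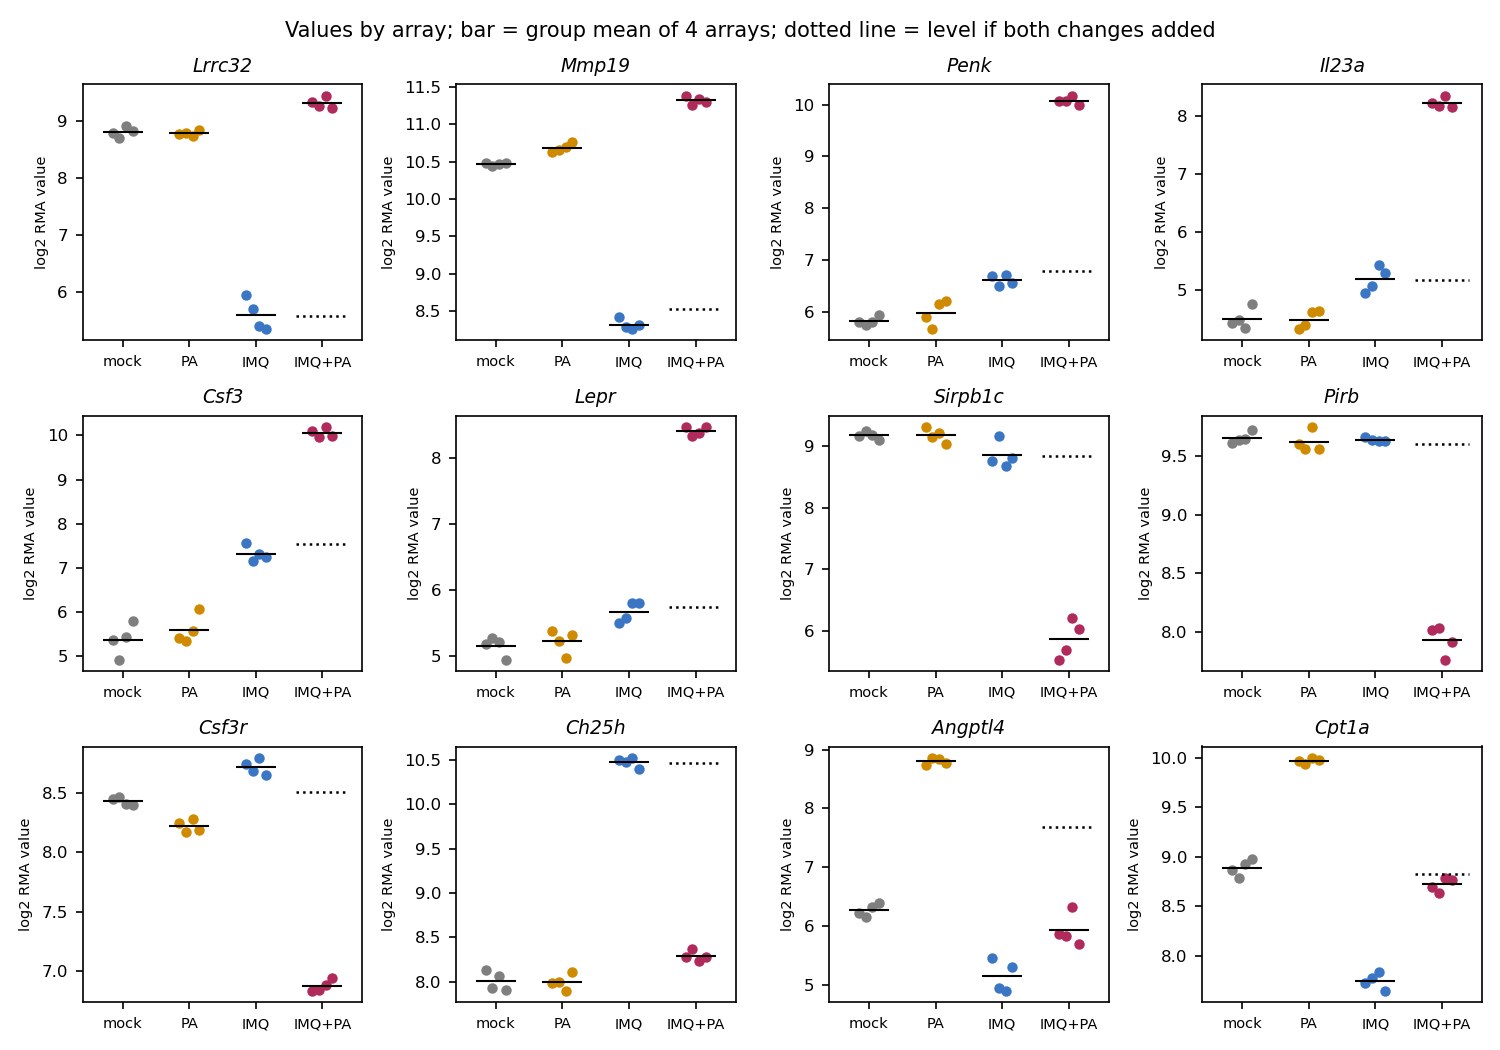
Log2 RMA values of 12 genes on each of the 16 arrays, 4 per group, with the mean of each group as a bar and the level given by the sum of both single changes as a dotted line in the IMQ+PA column. The IMQ+PA arrays of Penk lie from 10.00 to 10.17, well above the dotted line, those of Pirb from 7.76 to 8.04, below it, and those of Cpt1a close to it.

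Other genes far above the sum were Il23a, Csf3, Lepr, Hdc, Sptssb and Il2. Il23a, the subunit that makes IL-23 specific, read 4.43, 4.48, 4.35 and 4.76 in mock, 4.33, 4.39, 4.61 and 4.63 in PA, 4.95, 5.07, 5.44 and 5.29 in IMQ, and 8.23, 8.17, 8.34 and 8.15 in IMQ+PA. Both mock and PA were dim, IMQ raised it by 0.68, and the joint level was above 8 on all 4 arrays, which gave an interaction of 3.05 ± 0.16 (limma, adjusted p = 3.95e-09). Csf3, the growth factor of neutrophils (G-CSF), read 5.37, 4.92, 5.43 and 5.79 in mock, 5.42, 5.33, 5.58 and 6.07 in PA, 7.57, 7.15, 7.32 and 7.25 in IMQ, and 10.10, 9.97, 10.19 and 9.98 in IMQ+PA. IMQ alone raised it by 1.95 and both by 4.68, an interaction of 2.52 ± 0.24 (limma, adjusted p = 2.74e-06). Lepr, the leptin receptor, had an interaction of 2.67 ± 0.14, and Hdc, the enzyme that makes histamine, of 2.43 ± 0.32, with single changes by IMQ of 0.52 and 2.24. Sptssb, a small subunit of serine palmitoyltransferase, which joins palmitoyl-CoA to serine in the first step of sphingolipid synthesis, was joint only. It read from 2.68 to 3.58 on the other 12 arrays, which is dim, and 6.51, 6.62, 6.95 and 6.20 with both. Il2, the T cell growth factor, was dim in the same way, at 2.18 to 3.08 on 12 arrays and 4.92, 5.52, 5.23 and 5.02 with both. For these genes the lower level lies in the range of background, so the sizes of 3.07 and 2.80 have no firm meaning as folds.

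Fos, a subunit of the factor AP-1, answered both stimuli in opposite ways. It read 6.30, 6.23, 6.50 and 6.33 in mock, 7.25, 7.39, 7.30 and 7.43 in PA, 5.49, 5.23, 5.43 and 5.53 in IMQ, and 8.90, 8.77, 8.87 and 8.73 in IMQ+PA. PA alone raised it by 1.00, IMQ alone lowered it by 0.92, and with both it rose by 2.48, an interaction of 2.39 ± 0.10 (limma, adjusted p = 8.34e-10). Each group was separate from the others on all arrays. Emp1, a membrane protein, also reached 2.39 and was antagonistic, since its fall of 2.72 with IMQ shrank to 0.34. A second probe set of Emp1 gave 0.82, in the same direction and smaller.

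The gene farthest below the sum was Sirpb1c, a signal-regulatory protein. It read 9.17, 9.25, 9.19 and 9.10 in mock, 9.31, 9.15, 9.21 and 9.03 in PA, 8.76, 9.16, 8.67 and 8.81 in IMQ, and 5.54, 5.70, 6.21 and 6.04 in IMQ+PA. The 12 arrays of the other groups lay between 8.67 and 9.31 and no IMQ+PA array exceeded 6.21, so neither stimulus alone gave a called change and both gave a fall of 3.30 (interaction -2.97 ± 0.19, limma, adjusted p = 3.39e-08). Pirb, an inhibitory receptor that binds MHC class I, was likewise joint only, at 9.56 to 9.75 on 12 arrays and 8.02, 8.04, 7.76 and 7.91 with both (-1.67 ± 0.09). Sirpb1a had -2.18 ± 0.08 and was synergistic. These genes have near-identical copies in the mouse genome, so probes could be shared and their values are uncertain as to which copy they read. Tgfbi, a secreted matrix protein that TGF-beta induces, and Gpr141, an orphan receptor, were joint only too, with -1.64 ± 0.07 and -1.54 ± 0.07.

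A second kind of low interaction was a rise with IMQ that was lost with both. Ch25h, which makes 25-hydroxycholesterol, an oxysterol known to restrain SREBP2 and to act on LXR, read 8.13, 7.93, 8.06 and 7.91 in mock, 7.98, 7.99, 7.90 and 8.11 in PA, 10.49, 10.48, 10.52 and 10.40 in IMQ, and 8.27, 8.37, 8.24 and 8.28 in IMQ+PA. IMQ raised it by 2.47 and both raised it by 0.28, so the IMQ+PA arrays lay just above mock and below all IMQ arrays (interaction -2.17 ± 0.08, limma, adjusted p = 3.31e-10). A second probe set of Ch25h gave -1.05. Siglece, an inhibitory lectin for sialic acid, rose by 3.39 with IMQ and by 1.08 with both. Klra2, of the Ly49 family with its near-identical copies, rose by 2.98 and 0.86, and Slc28a2, a nucleoside transporter, by 2.13 and 0.49. In P2ry13, a receptor for ADP, and Gda, guanine deaminase, the fall with both (2.51 and 2.55) went beyond that with IMQ (0.47 and 0.78).

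Angptl4, an inhibitor of lipoprotein lipase and a known target of PPAR factors, showed the largest change with PA alone among the named genes, and a smaller one on top of IMQ. It read 6.23, 6.15, 6.32 and 6.39 in mock, 8.74, 8.86, 8.84 and 8.77 in PA, 5.46, 4.95, 4.90 and 5.30 in IMQ, and 5.86, 5.83, 6.32 and 5.69 in IMQ+PA. The 4 PA arrays stood above 8.7 and all others at or below 6.39. PA raised it by 2.53 without IMQ and by 0.77 with it, the IMQ+PA arrays lying above all IMQ arrays, and the joint change from mock was not called. The interaction was -1.76 ± 0.19 (limma, adjusted p = 7.72e-06).

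Genes of folding, entry and exit at the ER lay above the sum. Of 26 measured ER chaperones and disulfide isomerases, 20 had a called interaction above 0 and 1 below, with a median of 0.59. All 20 were joint only, synergistic or turned upward. Of 26 genes of translocation into the ER and N-glycosylation, 17 were above and 0 below (median 0.29), and of 26 genes of COPI and COPII transport, 16 were above and 0 below (median 0.23). Of 21 genes of ER-associated degradation, 9 were above and 2 below (median 0.16). The median over all 22180 genes was -0.01, with 6.58% called above 0. Without the 5 arrays with high Il6, 17, 12, 6 and 4 members of these lists were called above 0, and the medians were 0.61, 0.35, 0.22 and 0.12. Without the other 3 arrays, 19, 14, 7 and 7 were.

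Hspa5 encodes BiP, the main chaperone of the ER and the protein that holds its stress sensors inactive. It read 9.70, 9.76, 9.72 and 9.68 in mock, 9.83, 9.89, 9.90 and 10.03 in PA, 9.96, 9.88, 10.00 and 9.83 in IMQ, and 11.18, 11.09, 11.31 and 11.10 in IMQ+PA. All IMQ+PA arrays lay above 11, and the single changes of 0.20 and 0.21 summed to far less than the joint change of 1.46 (interaction 1.05 ± 0.08, limma, adjusted p = 4.93e-07). Creld2, a disulfide isomerase that ER stress induces, read 9.05, 8.98, 9.07 and 9.03 in mock, 9.21, 9.29, 9.38 and 9.42 in PA, 9.35, 9.33, 9.43 and 9.37 in IMQ, and 11.07, 11.01, 11.11 and 11.02 in IMQ+PA, with an interaction of 1.39 ± 0.07. Sdf2l1, a partner of BiP, read 9.20, 9.27, 9.30 and 9.34 in mock, 9.32, 9.32, 9.34 and 9.27 in PA, 8.44, 8.22, 8.39 and 8.24 in IMQ, and 10.10, 10.21, 10.21 and 10.06 in IMQ+PA. IMQ alone lowered it by 0.95 and both raised it above mock on every array, the largest interaction of the list (1.78 ± 0.08, limma, adjusted p = 1.38e-09). Derl3, a channel component of ER-associated degradation, read 5.40, 5.63, 5.78 and 5.46 in mock, 6.15, 6.37, 6.26 and 6.42 in PA, 6.23, 6.12, 6.69 and 6.37 in IMQ, and 9.45, 9.20, 9.49 and 9.47 in IMQ+PA, and rose by 0.73 with PA, 0.79 with IMQ and 3.84 with both (2.31 ± 0.16). Hyou1, Manf and Pdia6 had 0.90 ± 0.07, 0.93 ± 0.07 and 0.95 ± 0.06. The exception was Ero1a, an oxidase of the ER that hypoxia is known to induce, with -0.43 ± 0.07. Canx, calnexin, was at 0.14 ± 0.05 and was not called.

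Genes of amino acid supply and tRNA charging mostly lay below the sum. Of 20 measured targets of ATF4 in amino acid metabolism, 14 had a called interaction below 0 and 1 above (median -0.65), against 7.01% of all genes below 0. Of 16 cytosolic aminoacyl-tRNA synthetases, which charge tRNAs with amino acids, 12 were below 0 and 0 above (median -0.46). In 13 and 11 of them the rise that the sum gives was smaller or gone with both. IMQ alone raised these lists by medians of 1.34 and 0.70, beside 0.05 for the ER chaperones. Which input to ATF4 acted here was not tested. Without the 5 arrays with high Il6, 10 and 7 were called below 0, with medians of -0.54 and -0.40.

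Asns, asparagine synthetase, read 7.14, 7.05, 7.15 and 6.91 in mock, 7.61, 7.52, 7.57 and 7.66 in PA, 9.70, 9.77, 9.69 and 9.59 in IMQ, and 8.82, 8.73, 8.81 and 8.78 in IMQ+PA. IMQ raised it by 2.63 and PA alone by 0.53, yet PA on top of IMQ lowered it by 0.90, and the IMQ+PA arrays lay between the PA and the IMQ arrays without overlap (interaction -1.43 ± 0.08, limma, adjusted p = 1.52e-08). Gars, the glycyl-tRNA synthetase, read 9.27, 9.24, 9.36 and 9.25 in mock, 9.38, 9.46, 9.45 and 9.51 in PA, 10.13, 10.16, 10.16 and 10.11 in IMQ, and 9.73, 9.75, 9.73 and 9.66 in IMQ+PA. It showed the same order of groups with an interaction of -0.60 ± 0.06. Stc2, a secreted glycoprotein, and Cth, which makes cysteine, had -1.09 ± 0.15 and -1.04 ± 0.24, the latter not called without the 5 arrays (-1.02). Atf4 itself had -0.49 ± 0.06, with a rise of 0.31 with PA, 1.32 with IMQ, and a fall of 0.18 for PA on top of IMQ. The exception was Ddit4, an inhibitor of mTORC1 that several stresses induce, at 0.81 ± 0.13.

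**Figure D3:**
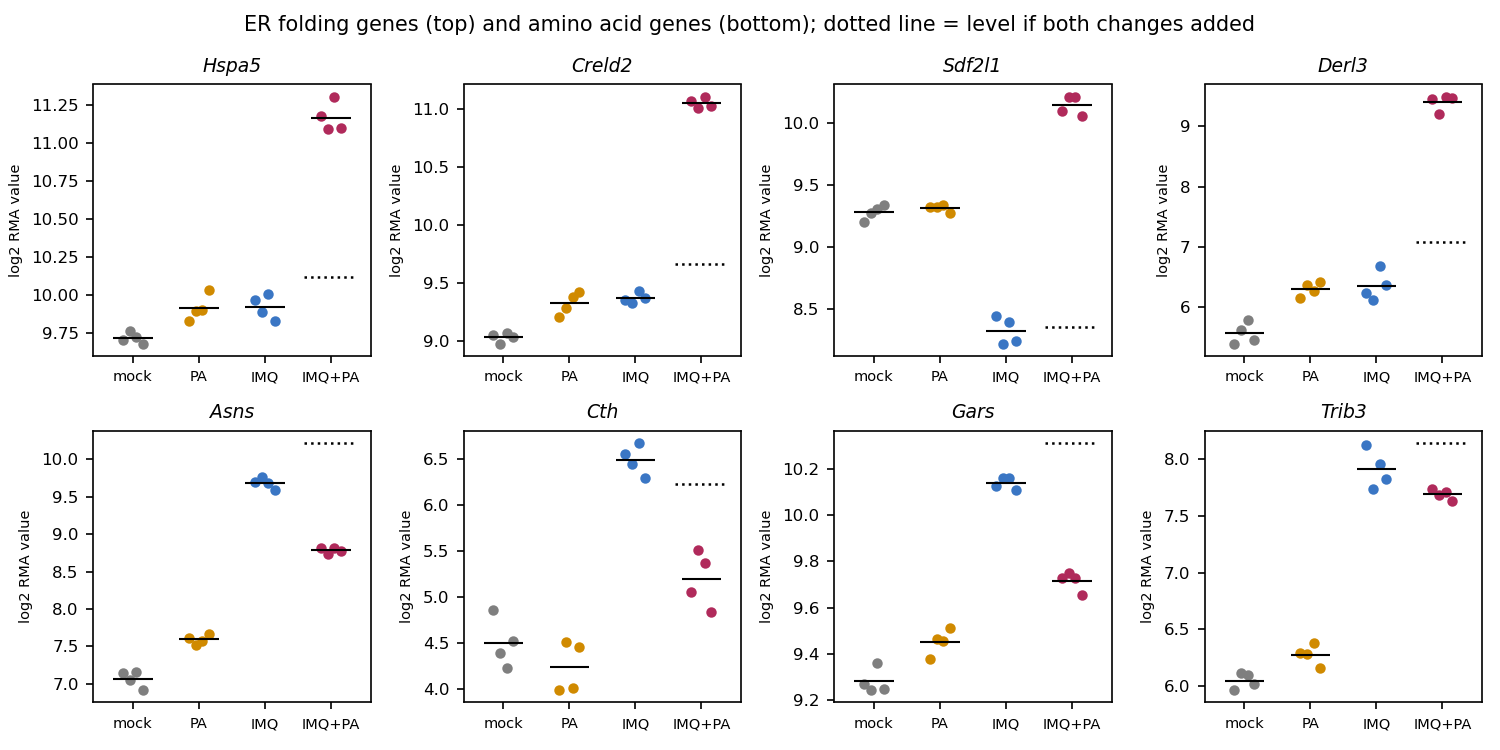
Log2 RMA values on each of the 16 arrays, 4 per group, for 4 genes of ER folding and degradation (top) and 4 genes of amino acid supply and the ATF4 response (bottom), with group means as bars and the level given by the sum of the single changes as a dotted line. In the top row the IMQ+PA arrays lie above the dotted line and above all other arrays, as for Creld2 at 11.01 to 11.11, and in the bottom row they lie below both the dotted line and the IMQ mean, as for Asns at 8.73 to 8.82.

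Of 17 sensors and factors of the unfolded protein response, 6 were above 0 and 6 below, with a median of -0.04, and 2 were above and 2 below without the 5 arrays. Above 0 were Creb3l2, an ER-bound factor of the secretory pathway (0.91 ± 0.11), Atf3 (0.66 ± 0.06, a fall with IMQ that was gone with both), Eif2ak3, which encodes PERK (0.44 ± 0.09, adjusted p = 0.0897 without the 5 arrays and 0.0512 without the other 3), and Ddit3, which encodes CHOP. Ddit3 read 7.40, 7.27, 7.42 and 7.35 in mock, 7.55, 7.45, 7.65 and 7.75 in PA, 8.45, 8.48, 8.62 and 8.60 in IMQ, and 9.10, 9.06, 9.20 and 8.99 in IMQ+PA, and its interaction of 0.31 ± 0.10 (limma, adjusted p = 0.045) was lost in 17 of 26 alternatives and kept in 4 of 16 fits without 1 array. Below 0 were Atf5 (-0.63 ± 0.11, adjusted p = 0.0706 without the 5 arrays), Ppp1r15b (-0.53 ± 0.06), Atf4 and Trib3, the last at -0.45 ± 0.11 and not called without the 5 arrays (adjusted p = 0.12) or without the other 3 (adjusted p = 0.0751). Xbp1, whose activity depends on splicing that these values do not separate, was at 0.08 ± 0.05 and was not called.

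Promoters of the ER and the amino acid genes carry known DNA elements, which are shown because the genes of the lists differ in them. A promoter here is 250 bases before to 50 bases after a gene's start in RefSeq (GRCm38.p6), and 16990 of the genes tested had at least 1. The ER stress element, CCAAT and CCACG with 9 bases of any kind between them on either strand, is known as the site of ATF6 with NF-Y. It was found in 37 of 27025 genes with a promoter in the table (0.137%), in 8 of 23 ER chaperone genes with a promoter (34.8%), in 2 of 16 of ER-associated degradation (12.5%), and in 0 of 18 ATF4 targets and 0 of 9 synthetases. The core of the amino acid response element, TGATGCAA on either strand, is known as a site of ATF4 with C/EBP factors. It was found in 1.03% of all genes, in 4 of 18 ATF4 targets (22.2%) and in 3 of 9 synthetases (33.3%). It was also found in 0 of 23 ER chaperone genes and in 1 of 16 of ER-associated degradation (6.25%). A match is a run of letters and not a measured site.

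These are the matches to the ER stress element in the genes of the folding and degradation lists, printed 5′ to 3′ on the strand that reads CCAAT first, with the element in capitals and 5 bases on each side. Hspa5 lies at chr2:34772020-34772048 (plus strand), Creld2 at chr15:88819515-88819543 (minus strand), Pdia6 at chr12:17266486-17266514 (plus strand) and Dnajc3 at chr14:118937822-118937850 (plus strand). Ero1b lies at chr13:12565677-12565705 (minus strand), Calr at chr8:84847070-84847098 (plus strand) and Canx at chr11:50325795-50325823 (minus strand). Hsp90b1 has matches at chr10:86705633-86705661 (minus strand) and chr10:86705528-86705556 (plus strand). Derl3 lies at chr10:75893237-75893265 (minus strand) and Syvn1 at chr19:6046527-6046555 (plus strand).
Hspa5: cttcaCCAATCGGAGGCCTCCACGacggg
Creld2: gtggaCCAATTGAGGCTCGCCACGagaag
Pdia6: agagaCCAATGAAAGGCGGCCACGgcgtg
Dnajc3: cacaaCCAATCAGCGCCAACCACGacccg
Ero1b: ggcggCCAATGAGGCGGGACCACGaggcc
Hsp90b1, farther from the start: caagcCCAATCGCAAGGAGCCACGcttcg
Hsp90b1, nearer to the start: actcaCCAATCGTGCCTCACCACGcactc
Calr: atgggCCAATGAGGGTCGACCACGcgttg
Canx: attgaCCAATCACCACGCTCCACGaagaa
Derl3: gctagCCAATGGGGAAGTCCCACGgtaga
Syvn1: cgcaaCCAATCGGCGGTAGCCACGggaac

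Of these 10 genes, Canx was the one without a called interaction. Genes can also be counted by the element alone. Most of the called ones are then the list members shown above, so this count is no independent support for the list counts. Of all 29 genes tested with a match, 11 had a called interaction above 0 and 0 below (37.9% against 6.58% of all genes), with a median of 0.34, and 12 of the 29 were dim in every group. Beyond the genes shown, the called ones were Alg12, a mannosyltransferase of N-glycosylation, and the predicted gene Gm20560. Several of the others (Xlr3a, Xlr3b and Xlr3c, and the Esp genes) are close copies that share sequence. Of 152 genes tested with the core of the amino acid response element, 11 were above 0 and 19 below (7.24% and 12.5%, beside 6.58% and 7.01% of all genes), with a median of -0.02. For the AP-1 element TGANTCA, 111 of 1430 genes were above and 94 below (7.76% and 6.57%).

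The whole stretch of 250 bases before the start of Hspa5 (chr2:34771840-34772089, plus strand), shown because BiP is the best known of the ER chaperones, has the ER stress element and 1 match to the AP-1 element in capitals.
Hspa5 promoter: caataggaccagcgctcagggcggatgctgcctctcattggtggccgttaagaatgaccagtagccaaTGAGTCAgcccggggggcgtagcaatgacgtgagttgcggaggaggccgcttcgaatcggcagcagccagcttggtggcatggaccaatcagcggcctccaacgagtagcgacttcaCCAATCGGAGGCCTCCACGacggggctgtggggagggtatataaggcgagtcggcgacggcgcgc

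The matches to the core of the amino acid response element in the ATF4 targets and synthetases follow in the same form. They are Chac1 (chr2:119351044-119351061, minus strand), Slc7a11 (chr3:50443667-50443684, minus strand, and chr3:50443648-50443665, plus strand), Nupr1 (chr7:126625568-126625585, plus strand), Vldlr (chr19:27216815-27216832, minus strand), Iars (chr13:49682132-49682149, minus strand), Tars (chr15:11399661-11399678, plus strand) and Yars (chr4:129189901-129189918, plus strand). Those of Iars and Yars lie just after the annotated start.
Chac1: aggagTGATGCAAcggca
Slc7a11, farther from the start: gtggcTGATGCAAacctg
Slc7a11, nearer to the start: catgaTGATGCAAattct
Nupr1: ctgtcTGATGCAAtctgg
Vldlr: agcgcTGATGCAActatt
Iars: ggaggTGATGCAAtactg
Tars: ccagcTGATGCAAcggga
Yars: tcagcTGATGCAAcccga

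Of these 7 genes, 6 had a called interaction below 0, from -0.86 in Nupr1, a stress-induced chromatin protein, and -0.72 in Chac1, which degrades glutathione, to -0.23 in Slc7a11, the cystine importer. Vldlr was dim and not called. Outside these lists, Atf3 holds the same core (-110 to -103 from its start), and its interaction was called above 0, at 0.66.

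The cytokines split by gene. Of 22 measured, 7 had a called interaction above 0 (31.8%) and 2 below (9.09%). Of all genes, 6.58% and 7.01% were called, and of those not dim in every group 9.79% were called above 0. These shares stand beside the list counts that follow as well. Csf1, the growth factor of macrophages, was turned, with a fall of 0.66 with IMQ and a rise of 1.34 with both (1.79 ± 0.10). Osm and Lif, of the IL-6 family, were synergistic, with 1.59 ± 0.15 and 1.54 ± 0.17. Tnf was antagonistic and read 8.36, 8.51, 8.55 and 8.17 in mock, 8.50, 8.52, 8.60 and 8.73 in PA, 11.35, 11.45, 11.43 and 11.31 in IMQ, and 10.67, 10.81, 10.81 and 10.76 in IMQ+PA. Its rise of 2.98 with IMQ became 2.36 with both, with no overlap of the IMQ and IMQ+PA arrays (interaction -0.81 ± 0.11, limma, adjusted p = 0.000103). Il12b, the subunit that IL-12 and IL-23 share, read 8.49, 8.68, 8.67 and 8.03 in mock, 8.31, 8.28, 8.56 and 8.67 in PA, 11.25, 11.20, 11.26 and 11.20 in IMQ, and 11.79, 11.76, 11.78 and 11.81 in IMQ+PA. Its interaction of 0.57 ± 0.17 (limma, adjusted p = 0.0353) was lost in 16 of 26 alternatives and was 0.29 (adjusted p = 0.0932) without the 5 arrays with high Il6.

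Several cytokines could not be placed. Il1b read 11.09, 11.28, 11.08 and 9.40 in mock, 9.86, 9.67, 10.66 and 11.23 in PA, 13.11, 13.12, 13.13 and 13.13 in IMQ, and 13.14, 13.16, 13.13 and 13.15 in IMQ+PA, and its interaction was 0.38 ± 0.51 (limma, adjusted p = 0.713). Its IMQ and IMQ+PA arrays all lay between 13.11 and 13.16, close to the highest value of the data set (13.5), while mock and PA spread over more than 1 unit. Il10 had -0.15 ± 0.20 and was not called. Il6 had 1.28 ± 1.25 and was not called either, with values from 0.63 (without PA replicate 2) to 2.13 (without mock replicate 4) when 1 array was left out. Without the 5 arrays it was 0.61, and without the other 3 it was 0.25 (limma, adjusted p = 0.58). The 5 arrays were set apart by their Il6 values and 1 mock array is left without them, so no call of Il6 is read from that fit. Of 19 targets and feedback genes of NF-kB, 3 were above 0 and 6 below (1 and 4 without the 5 arrays), and the 6 were all antagonistic, such as Irak3, an inhibitor of receptor signalling (-0.76 ± 0.10), and Bcl3, a nuclear inhibitor protein (-0.51 ± 0.08). Of 20 chemokines, 5 were above 0 and 1 below, among them Cxcl5, which attracts neutrophils (1.13 ± 0.21), and Cxcl10, which attracts activated T cells (0.86 ± 0.18, not called without the 5 arrays). The medians were 0.39 for cytokines and 0.36 for chemokines, and 0.04 and 0.15 without the 5 arrays. Leaving out 1 array moved them to between 0.26 (without PA replicate 2) and 0.57 (without mock replicate 4), and to between 0.19 (without PA replicate 1) and 0.41 (without mock replicate 4).

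Of 17 genes of maturation and costimulation, 6 were above 0 (all synergistic), 2 below (both antagonistic) and 6 near-additive, beside 6.58% and 7.01% of all genes above and below 0. Cd86, a ligand of CD28, read 6.87, 6.92, 6.98 and 6.82 in mock, 6.95, 7.0, 7.18 and 7.25 in PA, 8.24, 8.35, 8.36 and 8.29 in IMQ, and 9.31, 9.25, 9.35 and 9.21 in IMQ+PA, with all IMQ+PA arrays above all IMQ arrays (0.77 ± 0.09, limma, adjusted p = 2.88e-05). Tnfsf4, the ligand OX40L, had 0.84 ± 0.11. Icosl, the ligand of ICOS, lost most of its rise, from 1.31 with IMQ to 0.35 with both (-1.14 ± 0.08). Tlr7, the receptor of imiquimod, read 9.89, 9.83, 9.77 and 9.90 in mock, 9.84, 9.79, 9.90 and 9.85 in PA, 9.21, 9.25, 9.25 and 9.24 in IMQ, and 8.33, 8.40, 8.45 and 8.51 in IMQ+PA. IMQ lowered it by 0.61 and both by 1.42, and every IMQ+PA array lay below every other array (-0.81 ± 0.07, limma, adjusted p = 6.48e-07). Myd88, its adaptor, had -0.67 ± 0.11. The list of 17 Toll-like receptors and adaptors went both ways, with 4 above 0 and 3 below and a median of 0.14. Above 0 were, among others, Tlr1 (0.43), Ticam1 (0.34) and Tlr3 (0.33). The calls of Ticam1 and Tlr3 were kept in 4 and 3 of 16 fits without 1 array and lost in 19 and 18 of 26 alternatives. That of Tlr1 was kept in all 16 and lost in 3 of 26. Of the list, 0 were called above 0 and 3 below without mock replicate 4 and PA replicates 1 and 2.

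Early response genes mostly lay above the sum. Of 17 immediate early genes and dual-specificity phosphatases, 10 were above 0 and 0 below (median 0.42), and 7 were above 0 without the 5 arrays. Nr4a1, an orphan nuclear receptor, read 5.57, 5.58, 5.54 and 5.50 in mock, 5.39, 5.95, 5.80 and 5.84 in PA, 7.01, 6.79, 7.04 and 6.70 in IMQ, and 9.30, 9.51, 9.57 and 9.48 in IMQ+PA. The change with IMQ of 1.34 became 3.91 with both (2.39 ± 0.15, limma, adjusted p = 4.08e-08), and its relatives Nr4a2 and Nr4a3 had 1.85 ± 0.12 and 1.72 ± 0.08. Dusp5, which inactivates ERK in the nucleus, had 1.38 ± 0.10. Of 13 AP-1 and MAF factors, by contrast, 3 were above 0 and 1 below (1 and 1 without the 5 arrays), with Fos alone above 1 and Batf at -0.92 ± 0.10.

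Among 13 targets of the antioxidant factor NRF2, 7 were above 0 and 3 below, the latter 1 or 2 in every fit without 1 array (median 0.32). Gclc, the catalytic subunit of glutathione synthesis, read 8.03, 7.89, 7.97 and 7.96 in mock, 8.27, 8.23, 8.37 and 8.38 in PA, 8.18, 8.04, 8.14 and 7.88 in IMQ, and 9.76, 9.73, 9.78 and 9.78 in IMQ+PA. IMQ alone left it at 0.10, PA raised it by 0.35 and both by 1.80 (1.35 ± 0.09, limma, adjusted p = 5.11e-08). Nqo1, a quinone reductase, had 1.29 ± 0.12 and Srxn1, which repairs peroxiredoxins, 1.15 ± 0.07, whereas Gsr, glutathione reductase, had -0.59 ± 0.07. Of 12 cytosolic and mitochondrial heat shock proteins, 3 were above 0, namely the stress-induced Hspa1b (1.74 ± 0.17), Hspa1a (1.44 ± 0.19) and Hsph1 (1.19 ± 0.08), and 1 below, the mitochondrial Hspa9 (-0.29 ± 0.06, not called without the 5 arrays). Hspa1a and Hspa1b are near-identical copies, so their values are not independent.

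Beside Lrrc32, other genes that handle latent TGF-beta included Itgb8 and Itgav, which together form the integrin that frees TGF-beta from its latent complex. They had 1.51 ± 0.13 and 0.75 ± 0.06, and both were synergistic. Of the 16 genes of that list, 4 were above 0 and 1 below, with Tgfb1 at 0.08 and not called. Of 21 genes of matrix remodelling, 9 were above 0 and 3 below. Plau, urokinase, read 9.26, 9.18, 9.29 and 9.32 in mock, 9.08, 9.14, 9.19 and 9.29 in PA, 6.38, 5.94, 6.30 and 6.04 in IMQ, and 7.32, 7.51, 7.54 and 7.27 in IMQ+PA, so its fall of 3.10 with IMQ shrank to 1.86 with both (1.33 ± 0.13). Mmp2, a gelatinase, rose by 2.27 with IMQ and by 0.74 with both, and was antagonistic (-0.92 ± 0.10).

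Receptors of the C-type lectin and Fc families fell on both sides, with 4 of 17 above 0 and 7 below (2 and 6 without the 5 arrays). Clec7a encodes Dectin-1, a receptor for fungal glucans, and its fall of 1.56 with IMQ shrank to 0.12 (1.46 ± 0.06). Clec12a, an inhibitory receptor for uric acid crystals, fell by 0.84 with IMQ and 2.48 with both (-1.41 ± 0.10). Csf3r, the receptor of G-CSF and a marker of neutrophils, read 8.45, 8.47, 8.41 and 8.40 in mock, 8.25, 8.18, 8.29 and 8.19 in PA, 8.74, 8.69, 8.80 and 8.65 in IMQ, and 6.83, 6.84, 6.88 and 6.94 in IMQ+PA. It was turned, from a rise of 0.29 with IMQ to a fall of 1.56 with both, with all IMQ+PA arrays below all others (-1.64 ± 0.07, limma, adjusted p = 3.46e-10).

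Markers of other cells were read beside these. Of 11 neutrophil markers, 5 were dim (Ly6g, Mpo, Camp, Ltf and Retnlg), and the mean log2 level of the list lay at 5.09 to 5.16 in mock, 4.91 to 4.97 in PA, 5.13 to 5.19 in IMQ and 4.83 to 4.94 in IMQ+PA. Of its members Csf3r and Camp had a called interaction, both below 0. Camp was dim, and its call was lost in 14 of 25 alternatives and kept in 6 of 16 fits without 1 array. Of 12 macrophage markers, 2 were above 0 and 3 below, with list means of 10.08 to 10.14, 9.97 to 10.02, 9.46 to 9.56 and 9.27 to 9.35 in the same order. Of 10 mast cell, basophil and eosinophil markers, 6 lymphocyte markers, 6 plasmacytoid markers and 1 erythroid marker, 6, 5, 2 and 1 were dim and 0 of each were called in limma, with 2, 0, 0 and 0 at an unadjusted p under 0.05. The conventional dendritic cell list lay at 7.06 to 7.24 in all groups, with Cd24a and Irf4 above 0. What part a shift in cell types has in the interactions was not tested.

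Lipid genes differed by pathway. Of 19 genes of sterol synthesis, 15 were near-additive, 9 of them with both single changes called, and 0 were above 0 and 3 below (0 and 0 without the 5 arrays with high Il6). The median interaction of the sterol list was -0.15, with median PA changes of 0.32 without IMQ and 0.17 with it. At an unadjusted p under 0.05 (limma), 2 sterol genes were above 0 and 8 below. The bound of 0.5 is wider than the median PA change, so near-additive here does not show that the PA change was kept in full. Cyp51, a sterol demethylase, rose by 0.52 with PA, fell by 1.04 with IMQ, and had an interaction of -0.01 ± 0.10. Hmgcs1, Fdps and Insig1 had -0.05 ± 0.08, 0.04 ± 0.11 and 0.15 ± 0.06. Of 18 genes of mitochondrial fatty acid oxidation, 12 were near-additive, 1 was above 0 and 3 below (0 and 0 without the 5 arrays). Cpt1a, which admits fatty acids to mitochondria, read 8.87, 8.79, 8.93 and 8.97 in mock, 9.97, 9.94, 10.00 and 9.98 in PA, 7.72, 7.77, 7.84 and 7.64 in IMQ, and 8.69, 8.63, 8.79 and 8.77 in IMQ+PA. PA raised it by 1.08 without IMQ and by 0.98 with it, IMQ lowered it, and the joint level returned to near mock (interaction -0.10 ± 0.08, 95% interval -0.27 to 0.06). Plin2, the coat of lipid droplets, had -0.18 ± 0.07 (95% interval -0.32 to -0.03).

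Of 8 genes listed as LXR targets or for cholesterol efflux, 6 were below 0 and 0 above (median -0.42). Of the 6, 4 were joint only, synergistic or turned downward. Among the 6 was Abcg1, a cholesterol exporter that fell by 0.72 with IMQ and 1.57 with both (-0.93 ± 0.05). Ch25h, in the list as the maker of an oxysterol that acts on LXR, was antagonistic. Of 12 genes of fatty acid synthesis and desaturation, 7 were below 0 and 1 above (median -0.33), with 2 below 0 and a median of -0.16 without the 5 arrays. Of the 7, 6 were joint only, synergistic or turned downward. Scd1, which makes palmitoleic and oleic acid from saturated precursors, read 8.94, 8.80, 8.98 and 8.96 in mock, 9.24, 9.06, 9.28 and 9.20 in PA, 8.37, 8.38, 8.52 and 8.58 in IMQ, and 7.75, 7.79, 7.82 and 7.70 in IMQ+PA. PA alone raised it by 0.28, PA on top of IMQ lowered it by 0.70, and the IMQ+PA arrays lay below all others (-0.97 ± 0.09, limma, adjusted p = 2.02e-06). Targets of PPAR and lipid droplet genes went both ways, with 5 of 19 above 0 and 6 below. Hilpda, an inhibitor of the lipase ATGL, read 7.10, 7.12, 7.07 and 6.91 in mock, 7.78, 7.84, 7.93 and 7.95 in PA, 8.20, 8.18, 8.14 and 8.27 in IMQ, and 10.68, 10.64, 10.69 and 10.55 in IMQ+PA, and rose by 0.82, 1.14 and 3.59 with PA, IMQ and both (1.62 ± 0.08), opposite in direction to Angptl4.

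Interferon-stimulated genes mostly stayed near the sum. Of 22, 15 were near-additive, 3 were above 0 (Oasl1 at 0.64 ± 0.15, Rsad2 at 0.62 ± 0.12 and Cmpk2 at 0.49 ± 0.08) and 1 below. Ifit1, an RNA-binding effector, read 7.93, 8.15, 8.19 and 7.55 in mock, 7.87, 7.82, 7.86 and 8.14 in PA, 11.20, 11.14, 11.11 and 11.06 in IMQ, and 11.16, 11.15, 11.10 and 11.22 in IMQ+PA. Its rise of 3.17 with IMQ was 3.20 with both (0.06 ± 0.16). Of 30 proteasome subunits, 24 were near-additive and 3 above 0 (0 without the 5 arrays, and 0 without the other 3). Of 27 genes of the cell cycle, 17 were near-additive, with 1 above and 1 below. Glycolysis (12 of 17), MHC class I peptide loading (10 of 15) and MHC class II presentation (8 of 11) were near-additive in most members. In limma, 0 of each were above 0 and 3, 3 and 1 below (17.6%, 20% and 9.09%, beside 7.01% of all genes, dim ones included). None of these list members was dim in every group. Without mock replicate 4 and PA replicates 1 and 2, 0, 0 and 1 were above 0 and 2, 1 and 1 below. At an unadjusted p under 0.05, 0, 0 and 1 were above 0 and 7, 7 and 3 below. Of all 7727 genes that IMQ alone changed, 4281 were near-additive without a called PA change and 88 with one. Near-additive genes were thus common among all genes that IMQ changed. An interval within 0.5 of 0 bounds the interaction and does not show that it is 0.

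**Figure D4:**
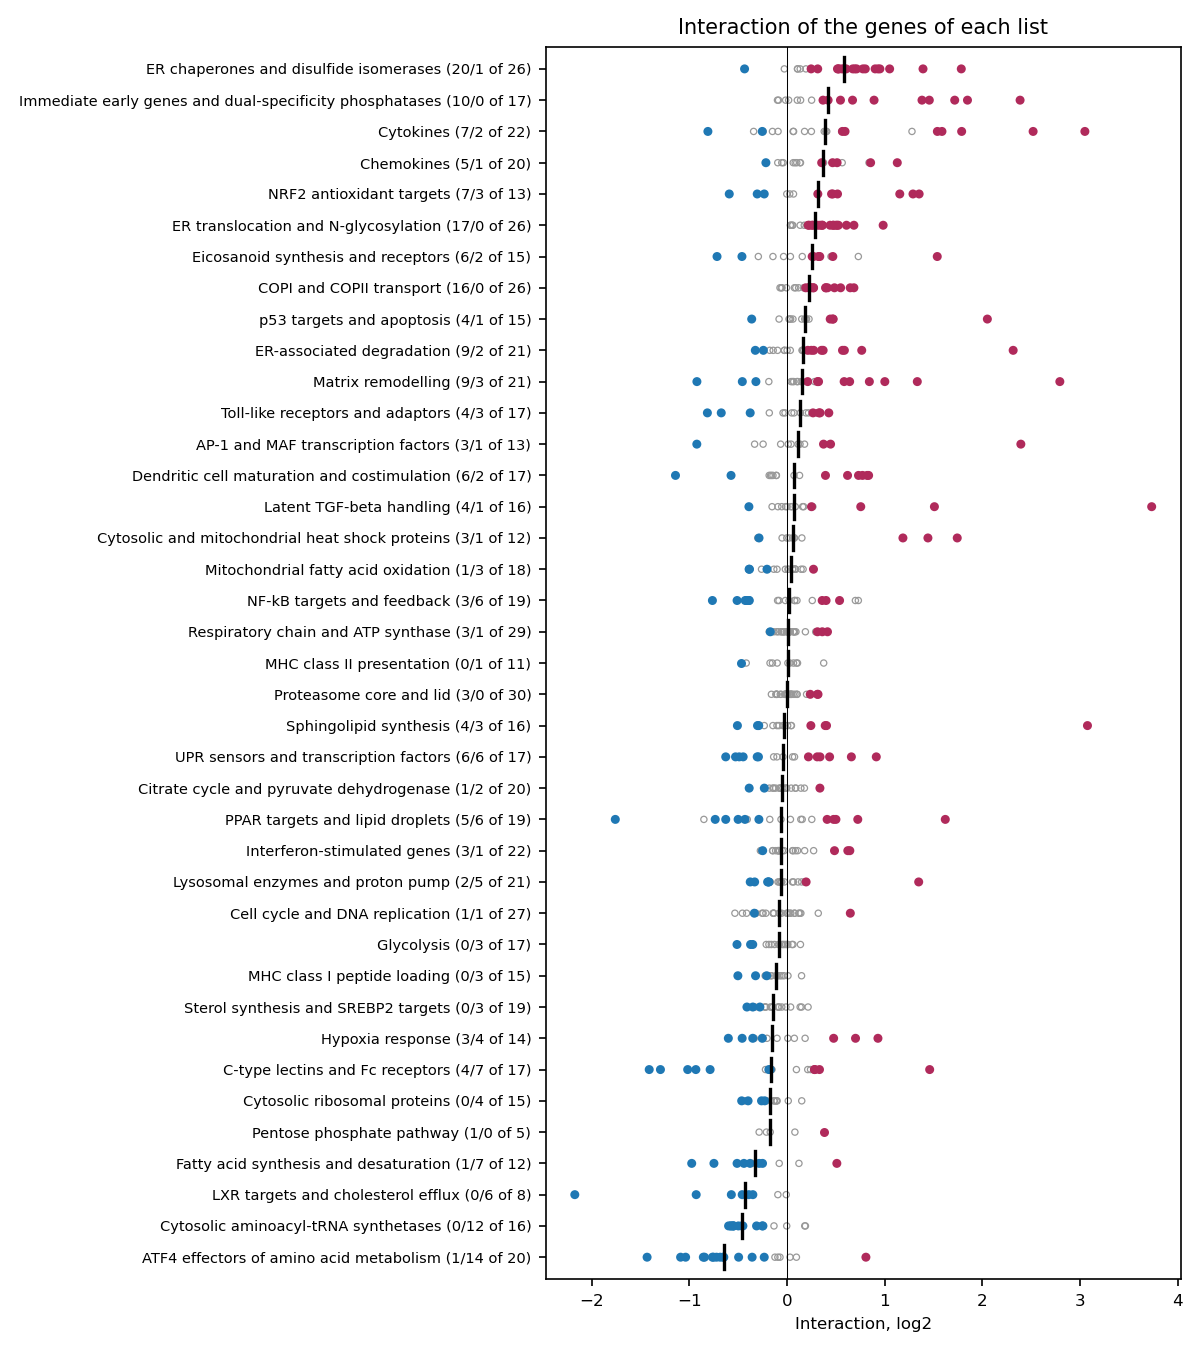
Interaction (x axis, log2) of every measured gene of each list (rows, sorted by their median, which is the black tick), with called genes filled in red above 0 and blue below 0 and the others open. The counts beside each name are called above 0, called below 0 and measured: the ER chaperone list is at the top with 20, 1 and 26, and the ATF4 list at the bottom with 1, 14 and 20.

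The change with PA can be set side by side without and with IMQ, since these contrasts share no array. Of 331 genes called without IMQ, 194 were called with it (58.6%), which is 4.15% of the 4676 called with IMQ. Of the 194, 153 changed in the same direction (130 up, 23 down) and 41 in opposite directions, 38 of them up with PA alone and down with PA on top of IMQ. The amino acid genes Asns, Slc7a5 and Atf4 were among the 38, with changes of 0.53 and -0.90, 0.41 and -0.35, and 0.31 and -0.18. Scd1, the desaturase Fads2 and Srebf1, a regulator of lipid synthesis, were too. Slc16a10, a transporter of aromatic amino acids, read 7.95, 7.87, 8.15 and 7.96 in mock, 8.54, 8.63, 8.60 and 8.61 in PA, 8.79, 8.76, 8.74 and 8.67 in IMQ, and 7.87, 8.03, 8.02 and 7.94 in IMQ+PA. Each stimulus alone raised it on every array, by 0.61 and 0.75, and with both it was back at the level of mock (-1.38 ± 0.08, limma, adjusted p = 2.87e-08).

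**Figure D5:**
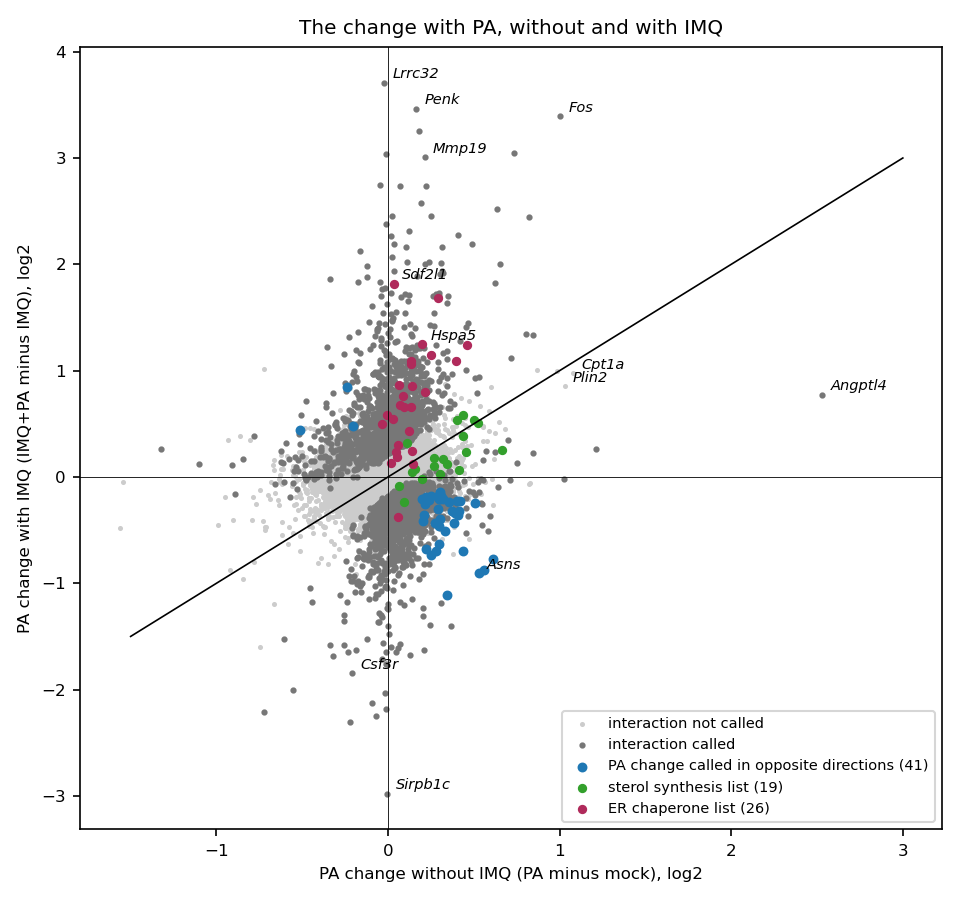
Change with PA in the absence of IMQ (x axis) and in its presence (y axis) for all 22180 genes, in log2 units from means of 4 arrays per group, with the diagonal for equal changes. The 41 genes called in opposite directions are blue, the 26 ER chaperones red and the 19 sterol genes green: Cpt1a and Plin2 lie near the diagonal, Lrrc32, Penk and Mmp19 high on the y axis near 0 on the x axis, and Angptl4 far to the right of the diagonal.

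The scale matters for what counts as additive. Adding log2 changes means multiplying folds, and on the linear scale the direction was opposite for 6 of the 3015 called genes (0.199%) and for 0 of the 230 with a size of at least 1. Among the 88 near-additive genes with both single changes called, 34 had a linear interaction opposite in sign. Marco, a scavenger receptor, read 6.87, 6.79, 6.67 and 6.43 in mock, 5.93, 6.01, 6.29 and 6.31 in PA, 9.80, 9.66, 9.73 and 9.74 in IMQ, and 9.28, 9.24, 9.20 and 9.09 in IMQ+PA. PA lowered it by 0.56 without IMQ and by 0.53 with it (0.03 ± 0.14), so the folds were alike while the linear loss was larger on the higher level. Lox, lysyl oxidase, Socs1, a brake on cytokine signalling, and Irf7, a factor of the interferon response, were near-additive in log2 as well (0.04 ± 0.15, 0.11 ± 0.11 and 0.11 ± 0.08).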

How the data were processed

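Gene expression was measured on 16 1-colour arrays. The deposited table holds log2 values of 41345 probe sets that the authors made with RMA and affy, per the submitters' processing notes; versions and genome build are not given in the sources used here. They were used as deposited. Of the probe sets, 23521 had 1 gene symbol in the platform annotation, 1814 several and 16010 none listed; the last 2 kinds are only counted in the closing section. For genes with several probe sets (1082), the probe set with the highest mean of the 16 arrays was kept, which gave 22180 genes.

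A group-means model was fitted with limma 3.58.1 in R 4.3.3 (12 residual and 2.96 prior degrees of freedom), groups taken from sample titles, and p-values are two-sided and adjusted by Benjamini-Hochberg over all genes, with a threshold of 0.05. Intervals are 95% and unadjusted. The code was tested on simulated data. The members and gene lists were chosen with earlier results of these data known, so list counts are descriptions. Genes named are the 10 highest and 10 lowest called interactions, the 4 largest of each class and direction, the 6 near-additive genes with the largest sums, from each list, at most 3 called genes in the main direction, 1 in the other and 2 near-additive, and a fixed set of cytokine, stress and lipid genes; other list members were named after their values were seen. Promoters come from RefSeq (GRCm38.p6), matched by symbol for 214 of 276 named genes. Alternatives changed the normalization, the moderation, the block, the filter on dim genes, the choice of probe set, the scale, the thresholds and the arrays included.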

Additional observations from a re-analysis of the deposited data

Results flagged for a closer look

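Within groups of 4, 1 array stood apart from the other 3 in 5 of 132 tests over 33 genes, where chance flags about 1 in 20 groups. Mock replicate 4 read 9.40 for Il1b, against 11.08 to 11.28 for the others, and 4.32 for Il6, against 7.57 to 7.90. It also read 3.84 for Hdc, against 4.85 to 4.99. PA replicate 4 read 3.08 for Il2, against 2.41 to 2.42, all of which are dim, and IMQ replicate 4 read 8.29 for Siglece, against 8.50 to 8.52.

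The effect of PA differed without and with IMQ for the 3015 genes with a called interaction (limma). The change with PA was called in both settings and in opposite directions for 41 genes. All but 3 of them rose with PA alone, and the exceptions were Mfge8, Olfr110 and Tnfsf8.

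Probe sets left out of the comparisons also carried called interactions. Of the 16010 with no symbol listed, 589 were called (3.68%; 345 above 0 and 244 below), from -1.66 to 2.78, with 110 of a size of at least 1. Of the 1814 with several symbols, 169 were called (9.32%; 102 above 0 and 67 below), from -2.56 to 2.31, with 9 of a size of at least 1.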

How the results depend on the processing

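Without the 5 arrays with high Il6 (mock replicates 1 to 3, PA replicates 3 and 4), 618 interactions were called above 0 and 582 below, with 274 joint only, 249 synergistic, 67 turned, 333 antagonistic, 277 cancelled and 2280 near-additive genes. Without the other 3 (mock replicate 4, PA replicates 1 and 2), 1007 were below 0, and 538 genes were synergistic, 445 antagonistic and 447 cancelled. At an adjusted p under 0.01, 894 were above 0 and 889 below, with 495 synergistic, 128 turned, 402 antagonistic and 370 cancelled. A bound of 0.3 in place of 0.5 left 2248 near-additive genes. The first 2 settings fit fewer arrays, the first with mock replicate 4 as the only mock array, and the last 2 are stricter by construction. These counts stayed within 1.5 times under the other alternatives, each array left out in turn included.

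Replicate numbers were not used to pair the samples in the main fit. Over 24 same-number pairs, deviations from group means correlated at -0.118 to 0.173 (median 0.006), with 4 pairs over 0.1. Pairs with different numbers correlated at -0.179 to 0.101 (median -0.004). The highest same-number pairs were mock with IMQ at replicate 3 (0.173) and at replicate 2 (0.146). At replicate 3, IMQ+PA correlated with IMQ at 0.115 and with mock at 0.114. Whether same-numbered arrays share a culture was not tested. With the replicate block, 1447 interactions were above 0 and 1495 below, of which 2752 were among the 3015. On the linear scale, in intensity units, the interaction turned to -228 for Marco, -89.3 for Socs1, -210 for Irf7, -827 for Lox, -152 for Socs3 and -82.0 for Acaa2. Of 180 named genes with a call, 121 kept it without the 5 arrays and 161 in all 16 fits without 1 array. Signal near background limits genes that are dim in a group, which were 406 of the 3015.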

Other observations

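Of 16 genes of sphingolipid synthesis, 4 had a called interaction above 0 and 3 below (1 and 0 without the 5 arrays with high Il6). Above 0, beside Sptssb, were Ormdl2, a regulator of serine palmitoyltransferase (0.39), and Degs1, which makes ceramide from dihydroceramide (0.40), and below 0 were the ceramide synthases Cers2 (-0.30), Cers5 (-0.51) and Cers6 (-0.29). Of 15 genes of eicosanoid synthesis and receptors, 6 were above 0 and 2 below, and 1 was above 0 without the 5 arrays. Hpgds, which makes prostaglandin D2, had 1.54, and Tbxas1, thromboxane synthase, -0.72.

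Of 14 genes of the hypoxia response, 3 were above 0 and 4 below. The latter were 2 without mock replicate 1, PA replicate 1, PA replicate 2 or IMQ+PA replicate 3. Without mock replicate 4 and PA replicates 1 and 2 together, 3 were above 0 and 1 below. Vegfa, a growth factor of vessels, was at 0.70. Adm, the peptide adrenomedullin, was at -0.60, and at -0.40 and not called without those 3 arrays. Of 15 p53 targets and apoptosis genes, 4 were above 0 and 1 below (1 and 0 without the 5 arrays), with the kinase Plk2 at 2.05. Of 21 lysosomal genes, 2 were above 0 and 5 below, and Atp6v0d2, a proton pump subunit, had 1.35. The count below 0 was 2 without mock replicate 1 or PA replicate 3, up to 6 without another single array, and 0 without the 5 arrays. Of 29 genes of the respiratory chain, 3 were above 0 and 1 below (beside 6.58% and 7.01% of all genes), and of 15 cytosolic ribosomal proteins, 0 were above 0 in limma (0 at an unadjusted p under 0.05) and 4 below (1 without the 5 arrays), down to -0.46 in Rps9.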
